A study of Mus musculus with 12 samples.

Results

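The growth hormone (GH) and insulin-like growth factor (IGF) axis was followed through 10 genes in mouse liver. They were Ghr, Stat5a, Stat5b, Socs2, Igf1, Igfals, Igfbp1, Igfbp2, Igfbp3 and Igfbp4, chosen by symbol, and each matched 1 of the 27022 Ensembl identifiers of the deposited count table. The RNA came from the livers of 6 female SJL/J mice of 11 weeks of age. All mice received an AIN-93G control diet with 50 ppm iron when they arrived at 3 weeks of age, and at 6 weeks 1 cage was moved to the same diet with 2% carbonyl iron (iron-loaded). All were fasted on the morning of collection and perfused with phosphate buffered saline, and 3 mice of each diet were used. From the RNA of each mouse 1 library was made with Trad-KAPA, a kit that reads fragments of the whole transcript, and 1 with 3’-LEXO, which reads the 3′ end of each transcript. Each diet was given to a single cage, and the effects of cage and diet cannot be told apart.

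In the liver GH binds its receptor, GHR, and the bound kinase JAK2 phosphorylates STAT5A and STAT5B, transcription factors that then enter the nucleus. Their known targets include Igf1, whose liver product is the main source of circulating IGF-I, Igfals, which encodes the acid-labile subunit, and Socs2, whose product damps signalling from the receptor. In the circulation most IGF-I is carried in a complex with IGFBP3 and the acid-labile subunit, while IGFBP1, IGFBP2 and IGFBP4 bind IGFs in smaller complexes. In the liver IGFBP1 is known to be held down by insulin and to rise in fasting, and IGFBP3 is known to be made largely by non-parenchymal liver cells.

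The libraries held between 10724672 and 16553616 counts on genes. Levels are in CPM (counts of a gene per 1000000 counts of its library). Iron-loaded mice 2 and 3 resembled each other more than any other pair of mice on the same diet did, and over all genes the chi-square of their counts was 6.46 times its degrees of freedom in Trad-KAPA, against 20.2 to 58.9 times for the other pairs, and 6.47 times in 3’-LEXO, against 28.4 to 66.1 times. Over genes with neither few nor very many counts this chi-square was 1.39 times its degrees of freedom in Trad-KAPA (11166 genes), against 4.24 to 12.1 times for the other pairs. In 3’-LEXO it was 2.68 times (11101 genes), against 5.86 to 13.8 times. Over these genes iron-loaded mice 2 and 3 thus differed little beyond counting noise in Trad-KAPA, and more clearly over all genes. They were kept as separate mice, and results were also computed with their counts summed. The diet labels were checked with Bmp6, Hamp, Id1 and Smad7, genes of the hepatic response to iron. All 4 were higher in every iron-loaded than in every control mouse in Trad-KAPA, as were 24.7% of all genes tested. However, Hamp in control mouse 1 stood at 515 CPM against 44.0 and 83.2 CPM in the other control mice. In Trad-KAPA Bmp6, Id1 and Smad7 were called higher and Hamp was not (edgeR adjusted p = 0.0667). In 3’-LEXO Hamp and Smad7 were called higher, Id1 was not (edgeR adjusted p = 0.0531), and Bmp6 was not among the genes tested. The 6 hepatocyte markers summed to between 144255 and 155855 CPM in control mice and between 116191 and 155806 CPM in iron-loaded mice in Trad-KAPA, and 0 of 6 were called in either kit. The 6 Kupffer cell markers summed to between 298 and 477 CPM in control mice and between 539 and 586 CPM in iron-loaded mice, with 2 of 6 called higher in Trad-KAPA (Marco and Vsig4) and 1 of 6 in 3’-LEXO (Marco), whereas the defining marker Clec4f was not called in either. In 3’-LEXO the Kupffer cell sums were from 824 to 1073 and from 1083 to 1324 CPM. Of 5 sinusoidal endothelial markers in the count data, Lyve1 was called higher in Trad-KAPA, with sums from 235 to 309 CPM in control and from 259 to 322 CPM in iron-loaded mice. In 3’-LEXO Lyve1 was called higher and Stab2 lower, 4 of 5 log2 fold changes were below 0, and the sums did not overlap, from 276 to 337 and from 225 to 252 CPM. Of 6 stellate cell markers Hgf was called higher and Des lower in Trad-KAPA (sums from 226 to 341 and from 314 to 332 CPM), and 0 of 6 were called in 3’-LEXO (419 to 451 and 386 to 437 CPM). None of the cholangiocyte and lymphocyte markers passed in either kit, and no marker of these lists in the table was at 0 in every library. The cholangiocyte markers summed to at most 16.2 CPM and the lymphocyte markers to at most 7.91 CPM in any library.

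Between the diets, 4 of the 10 genes passed the test in Trad-KAPA and 2 of 10 in 3’-LEXO (edgeR quasi-likelihood F test, Benjamini-Hochberg adjusted p under 0.05 over all genes tested). The background was 17.1% of the 13151 genes tested in Trad-KAPA and 6.1% of the 13301 tested in 3’-LEXO. Igfbp1 rose and Stat5a fell in both kits, where 5.23% of the 12229 genes tested in both were called in both, 2.67% as higher and 2.55% as lower. Igfbp3 and Stat5b fell in Trad-KAPA. Ghr, Igf1, Igfals, Igfbp2, Igfbp4 and Socs2 did not pass in either kit. For 5 of the 10 genes the values of the diets did not overlap in Trad-KAPA, with 1 above and 4 below the control mice (41.2% of all genes tested, 24.7% above and 16.6% below). In 3’-LEXO these were 4 genes, 1 above and 3 below (31.3%, 18.5% above and 12.8% below). Igfbp1 was above in both kits, as were 13.7% of the genes tested in both. The 10 genes had a median log2 fold change of -0.47 (Trad-KAPA) and -0.54 (3’-LEXO), beside 0.02 and 0.01 over all genes tested. Fewer cells of a type and less RNA per cell cannot be told apart in these bulk samples, and the part of the cell markers in the results was not tested.

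**Figure D1:**
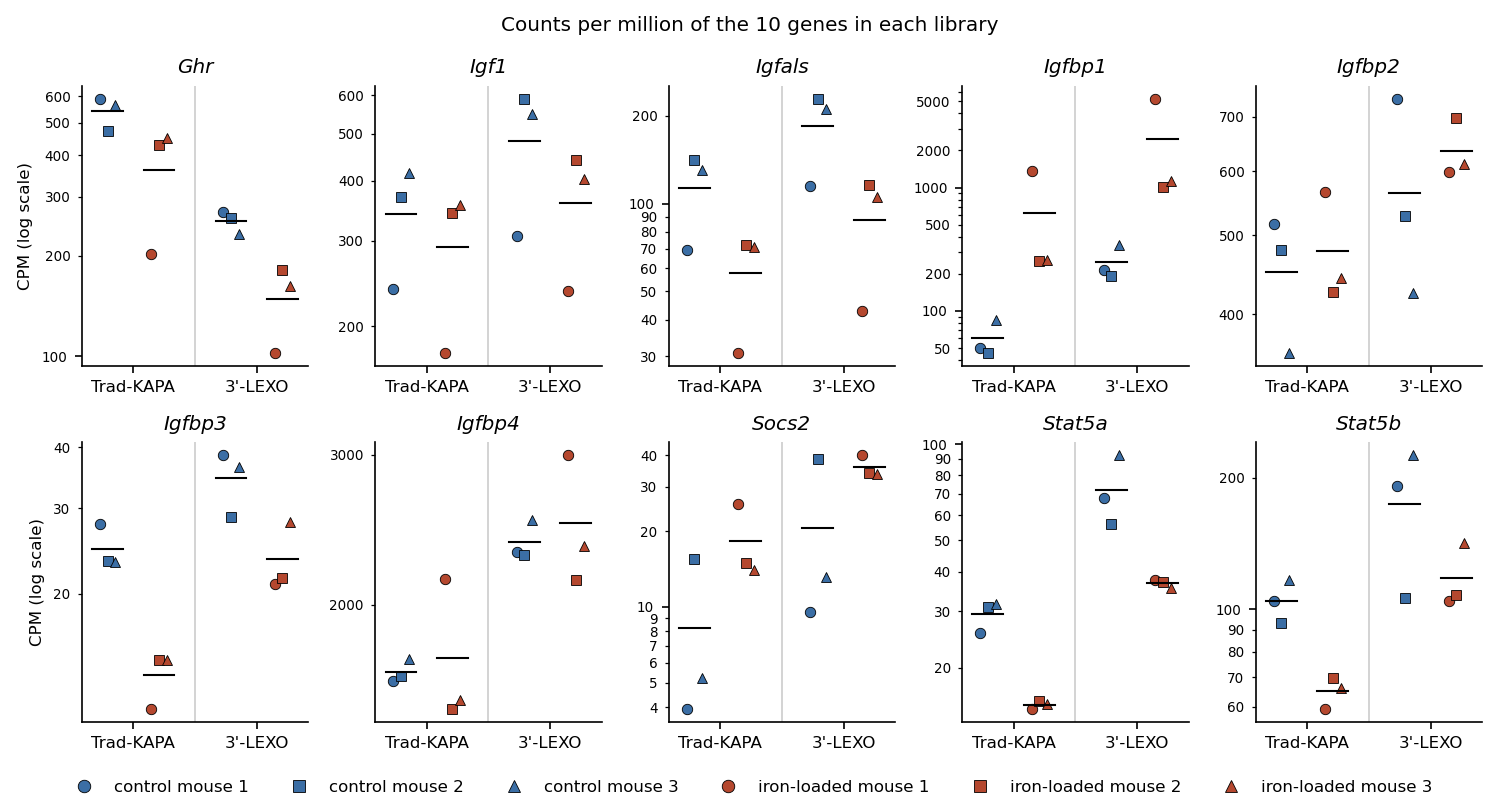
CPM of the 10 genes in each of the 12 libraries, on a log axis that differs between panels. Symbols are mice (the same symbol and colour is the same mouse in both kits), black bars are the means of 3 mice. Igfbp1 was above and Stat5a below all control mice in every iron-loaded mouse in both kits.

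The GH receptor was at 589, 471 and 565 CPM in control mice 1, 2 and 3 and at 202, 429 and 449 CPM in the iron-loaded mice of these numbers in Trad-KAPA, and values below keep this order. By 3’-LEXO it was at 270, 260 and 233 CPM in the control and 102, 181 and 163 CPM in the iron-loaded mice. In both kits each iron-loaded mouse had less Ghr than each control mouse, and iron-loaded mouse 1 had the least. Iron-loaded values lay below all control values in both kits for 9.14% of the genes tested in both. Its log2 fold change of -0.65 ± 0.29 (SE, n = 3 mice per diet, edgeR adjusted p = 0.155) in Trad-KAPA did not pass the threshold, nor did that of -0.82 ± 0.22 (edgeR adjusted p = 0.0542) in 3’-LEXO. Without iron-loaded mouse 1 it was -0.34 with Trad-KAPA and -0.61 with 3’-LEXO, the latter with an edgeR adjusted p = 0.0337. Ghr passed in 4 of 15 alternative settings in 3’-LEXO, among them without iron-loaded mouse 2 (edgeR adjusted p = 0.0424) and with DESeq2 (adjusted p = 0.00697), and in 1 of 15 in Trad-KAPA. Ghr lies on the reverse strand at chr15:3317760-3583492 (GRCm38).

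Stat5a, a transcription factor downstream of the receptor, was at 25.7, 30.9 and 31.7 CPM in the control mice and 14.9, 15.8 and 15.5 CPM in the iron-loaded mice in Trad-KAPA. In 3’-LEXO it was at 67.7, 56.2 and 92.5 CPM against 37.7, 37.0 and 35.6 CPM. The diets did not overlap in either kit, and the iron-loaded mice differed little from each other, with an SD of 0.471 CPM (Trad-KAPA) and 1.07 CPM (3’-LEXO). Stat5a fell by a log2 fold change of -1.01 ± 0.13 (SE, edgeR adjusted p = 0.00402) in Trad-KAPA and by -1.04 ± 0.20 (edgeR adjusted p = 0.0202) in 3’-LEXO. The call in Trad-KAPA held in 15 of 15 alternative settings, while that in 3’-LEXO was lost without control mouse 1 (-1.10, edgeR adjusted p = 0.0532), control mouse 3 (-0.79, 0.0616) or iron-loaded mouse 3 (-1.04, 0.064), and with iron-loaded mice 2 and 3 summed (-1.06, 0.0511).

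Stat5b, the more abundant STAT5 of the liver, was at 104, 93.0 and 117 CPM in the control mice and at 59.2, 69.7 and 66.1 CPM in the iron-loaded mice in Trad-KAPA, without overlap. In 3’-LEXO the control mice had 191, 106 and 225 CPM and the iron-loaded mice 105, 108 and 142 CPM. There control mouse 2 lay among the iron-loaded mice. The fall in Trad-KAPA was -0.76 ± 0.14 on the log2 scale (SE, edgeR adjusted p = 0.012) and was called in 15 of 15 alternative settings. In 3’-LEXO the estimate was -0.63 ± 0.28 (edgeR adjusted p = 0.194) and did not pass.

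The 2 STAT5 genes are neighbours on chromosome 11, with Stat5b on the reverse strand (chr11:100780731-100850724) and Stat5a on the forward strand (chr11:100859351-100885169), and 8626 bases separate their 5′ ends. They are a duplicated pair, and part of their exons is alike. Of the 50-base stretches of their annotated transcripts, 8.52% of those of Stat5a and 11.0% of those of Stat5b also occur in another gene. The pair shares 608 of them, so that reads from these stretches could not be assigned uniquely. The likeness extends to 1 of the 2 RefSeq promoter windows of each gene (250 bases before to 50 after a start site). It is shown because both genes were lower in Trad-KAPA. The best ungapped match between a Stat5a and a Stat5b window was 65 bases long with 58 identical bases, shown in capitals. It ran from position -66 to -2 of a Stat5a start (chr11:100860418-100860482, GRCm38.p6, forward strand) and from -57 to 7 of a Stat5b start (chr11:100822563-100822627, reverse strand). This Stat5b start lies inside the gene and not at the 5′ end that faces Stat5a.
Stat5a: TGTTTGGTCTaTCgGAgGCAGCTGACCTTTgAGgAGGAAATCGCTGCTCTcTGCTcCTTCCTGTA
Stat5b: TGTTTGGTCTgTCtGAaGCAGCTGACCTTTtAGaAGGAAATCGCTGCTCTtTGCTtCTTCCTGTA
Exons of Stat5a also share 72 bases with the antisense gene Stat3, which was not called in either kit (edgeR adjusted p = 0.278 and 0.931).

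Socs2, the feedback inhibitor, was at 3.93, 15.5 and 5.20 CPM in the control mice and at 25.6, 15.0 and 14.0 CPM in the iron-loaded mice in Trad-KAPA. In 3’-LEXO it was at 9.57, 38.7 and 13.2 CPM against 40.1, 33.9 and 33.7 CPM. In both kits control mouse 2 lay within the range of the iron-loaded mice and the other control mice lay below them. Neither kit gave a call, with a log2 fold change of 1.07 ± 0.46 (SE, edgeR adjusted p = 0.14) in Trad-KAPA and 0.77 ± 0.40 (edgeR adjusted p = 0.268) in 3’-LEXO. The estimate depended on single control mice. It was 1.90 (edgeR adjusted p = 0.0243) and 1.56 (0.0149) without control mouse 2, 0.73 (0.306) and 0.42 (0.546) without control mouse 1, and 0.86 (0.332) and 0.55 (0.525) without control mouse 3, for Trad-KAPA and 3’-LEXO. Socs2 (chr10:95385362-95417180, reverse strand) had 65 to 359 reads in a Trad-KAPA library and 134 to 541 in a 3’-LEXO library, and 4.58% of its 50-base stretches also occur elsewhere, mostly in Gm9847.

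Igf1 was at 239, 370 and 414 CPM in the control and 176, 343 and 355 CPM in the iron-loaded mice in Trad-KAPA, and at 307, 590 and 548 CPM against 237, 441 and 403 CPM in 3’-LEXO. The diets overlapped in both kits, because control mouse 1 was below iron-loaded mice 2 and 3. Its estimates were -0.29 ± 0.31 on the log2 scale (SE, edgeR adjusted p = 0.546) in Trad-KAPA and -0.47 ± 0.30 (edgeR adjusted p = 0.354) in 3’-LEXO. Igf1 (chr10:87858265-87937042, forward strand) did not pass in any of the 15 alternative settings in either kit.

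Igfals, the gene of the acid-labile subunit, was at 69.5, 141 and 130 CPM in the control mice and 30.8, 72.0 and 71.2 CPM in the iron-loaded mice in Trad-KAPA. In 3’-LEXO it was at 115, 229 and 212 CPM against 42.9, 116 and 106 CPM. As for Igf1, the overlap came from control mouse 1, the lowest control mouse, and iron-loaded mouse 1 was the lowest of all. The log2 fold change was -1.03 ± 0.37 (SE, edgeR adjusted p = 0.0896) in Trad-KAPA and -1.12 ± 0.37 (edgeR adjusted p = 0.1) in 3’-LEXO, and neither passed. Igfals did not pass in either kit with 1 mouse left out (edgeR adjusted p from 0.0662 to 0.234 and from 0.0752 to 0.248). With both mice numbered 1 left out, a setting chosen after seeing the data, its log2 fold change was -0.97 (edgeR adjusted p = 0.00089) and -1.03 (edgeR adjusted p = 0.00461). Igfals (chr17:24865997-24882010, forward strand) was the only 1 of the 9 genes with RefSeq promoter windows (250 bases before to 50 after a start site) that held the STAT5 motif TTCNNNGAA, which reads the same on both strands, and 2 of its 3 windows did. This motif is in 8.30% of the 32851 promoter windows of the table. Both windows are shown because Igfals is a known target of STAT5, with the motif in capitals, at -236 to -228 in the first (chr17:24877594-24877893, GRCm38.p6) and at -58 to -50 in the second (chr17:24877981-24878280).
Igfals promoter 1: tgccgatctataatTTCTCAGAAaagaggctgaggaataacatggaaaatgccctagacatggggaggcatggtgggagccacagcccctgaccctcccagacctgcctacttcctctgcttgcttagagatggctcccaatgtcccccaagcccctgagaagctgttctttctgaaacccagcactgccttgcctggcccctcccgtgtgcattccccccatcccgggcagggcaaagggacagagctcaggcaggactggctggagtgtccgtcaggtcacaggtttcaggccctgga
Igfals promoter 2: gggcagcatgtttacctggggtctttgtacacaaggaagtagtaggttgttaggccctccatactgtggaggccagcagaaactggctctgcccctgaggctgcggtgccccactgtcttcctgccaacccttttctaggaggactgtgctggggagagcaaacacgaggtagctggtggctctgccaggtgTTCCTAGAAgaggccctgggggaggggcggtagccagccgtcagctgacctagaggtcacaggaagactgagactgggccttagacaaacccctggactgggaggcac

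Igfbp1 showed the largest change of the 10 genes in both kits. In Trad-KAPA it was at 50.5, 45.6 and 84.3 CPM in the control mice and at 1367, 256 and 258 CPM in the iron-loaded mice, which is 22.7, 4.26 and 4.29 times the control mean. In 3’-LEXO it was at 215, 192 and 340 CPM in the control mice and at 5258, 1013 and 1128 CPM in the iron-loaded mice, which is 21.1, 4.07 and 4.53 times the control mean. Each iron-loaded mouse was above each control mouse, and iron-loaded mouse 1 had 5.32 times the mean of the other iron-loaded mice in Trad-KAPA and 4.91 times in 3’-LEXO. Igfbp1 rose by 3.27 ± 0.66 (SE, log2, edgeR adjusted p = 0.0158) in Trad-KAPA and by 3.21 ± 0.60 (edgeR adjusted p = 0.0169) in 3’-LEXO. Without iron-loaded mouse 1 it was 2.05 in both kits, with edgeR adjusted p = 0.0012 and 0.000704. The call was lost in Trad-KAPA without control mouse 1 (edgeR adjusted p = 0.0622) or 2 (0.0682), and in 3’-LEXO without control mouse 1 (0.0774), 2 (0.0823) or 3 (0.0576), while the fold change in these fits was between 3.03 and 3.53 on the log2 scale.

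Igfbp1 lies at chr11:7197782-7202546 on the forward strand. Its RefSeq promoter window (chr11:7197537-7197836, GRCm38.p6, forward strand) is shown because the gene changed most. Among the 9 genes with windows it was the only 1 with the insulin-response motif CAAAACA of FOXO factors on either strand, at -108 to -102 and in capitals, which is in 6.28% of all windows.
Igfbp1 promoter: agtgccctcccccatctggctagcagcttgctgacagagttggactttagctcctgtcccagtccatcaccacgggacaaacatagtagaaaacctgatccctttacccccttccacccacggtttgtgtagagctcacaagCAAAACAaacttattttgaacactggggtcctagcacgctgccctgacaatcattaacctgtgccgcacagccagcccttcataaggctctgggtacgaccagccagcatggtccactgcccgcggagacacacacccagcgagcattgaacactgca

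Igfbp3, which encodes the main carrier of IGF-I in blood, fell in Trad-KAPA. It was at 27.8, 23.3 and 23.2 CPM in the control mice and 11.6, 14.6 and 14.6 CPM in the iron-loaded mice there, and at 38.6, 28.7 and 36.5 CPM against 20.9, 21.5 and 28.1 CPM in 3’-LEXO. The diets did not overlap in Trad-KAPA, and in 3’-LEXO iron-loaded mouse 3 lay just below control mouse 2. The log2 fold change was -0.93 ± 0.14 (SE, edgeR adjusted p = 0.0072) in Trad-KAPA, called in 15 of 15 alternative settings, and -0.62 ± 0.19 (edgeR adjusted p = 0.08) in 3’-LEXO. Igfbp3 (chr11:7206086-7213923, reverse strand) is the neighbour of Igfbp1, and the 3′ ends of the 2 genes are 3539 bases apart. They moved in opposite directions in Trad-KAPA.

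Igfbp2 and Igfbp4, which encode binding proteins of smaller complexes, overlapped between the diets in both kits and were not called. Igfbp2 ranged from 358 to 516 CPM in the control and from 426 to 565 CPM in the iron-loaded mice in Trad-KAPA, and from 425 to 737 CPM and from 598 to 696 CPM in 3’-LEXO. Igfbp4, the most abundant of the 10 genes in control mice, ranged from 1629 to 1727 CPM and from 1507 to 2144 CPM in Trad-KAPA, and from 2291 to 2519 CPM and from 2138 to 3000 CPM in 3’-LEXO. The log2 fold change of Igfbp2 was 0.01 ± 0.15 (SE, edgeR adjusted p = 0.957) and 0.12 ± 0.21 (0.757), and that of Igfbp4 was -0.02 ± 0.15 (0.928) and 0.01 ± 0.19 (0.985), for Trad-KAPA and 3’-LEXO. The direction of these small estimates changed between settings. In both kits the highest Igfbp4 was that of iron-loaded mouse 1. Igfbp2 lies at chr1:72824503-72852474 and Igfbp4 at chr11:99041244-99054392, both on the forward strand.

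**Figure D2:**
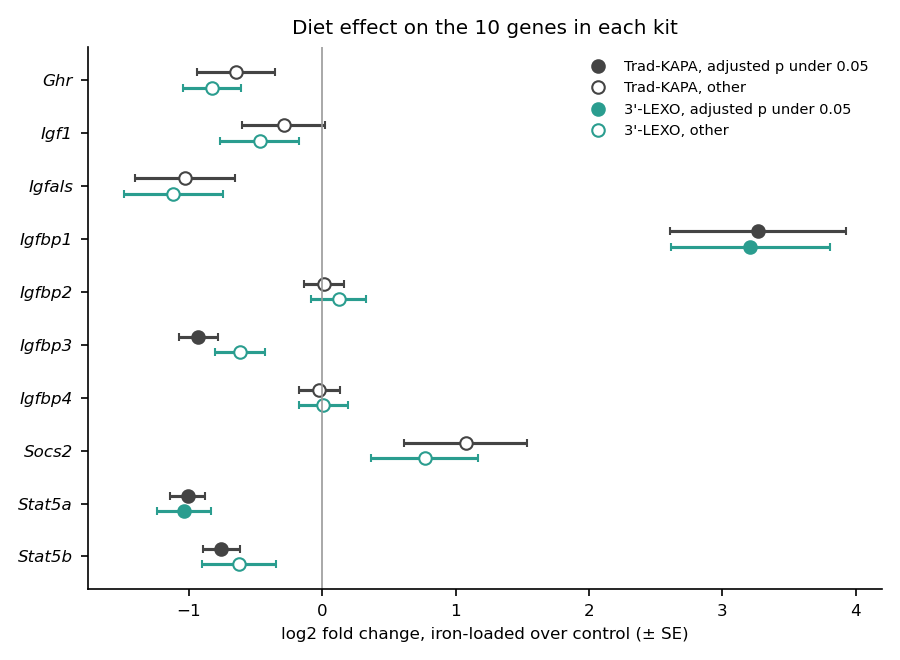
Log2 fold change of the 10 genes between iron-loaded and control mice with its SE, in each kit (n = 3 mice per diet). Filled points passed an adjusted p of 0.05. Igfbp1 lay at 3.27 and 3.21 and Stat5a at -1.01 and -1.04, and both passed in both kits.

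The 10 genes differed between mice of a diet as well as between diets. In Trad-KAPA iron-loaded mouse 1 had the highest level of 4 of the 10 genes (Igfbp1, Igfbp2, Igfbp4 and Socs2) and the lowest of the other 6, and in 3’-LEXO the highest of 3 and the lowest of 5. Of all genes tested, it was the highest of the 6 mice for 37.4% and the lowest for 20.1% in Trad-KAPA (57.5% together). In 3’-LEXO it was the highest for 34.4% and the lowest for 20.8% (55.2% together). Its Ghr, Igf1 and Igfals were 0.461, 0.504 and 0.430 times the mean of the other iron-loaded mice in Trad-KAPA, and 0.597, 0.561 and 0.387 times in 3’-LEXO. In the same mouse Fgf21, a hormone of the fasted liver known to blunt GH signalling, was at 55.6 CPM in Trad-KAPA against 1.03 to 9.04 CPM in the other mice, and Alb was at 93071 CPM against 119514 to 134719 CPM. Control mouse 1 had 0.609 and 0.513 times the mean of the other control mice for Igf1 and Igfals in Trad-KAPA, and 0.540 and 0.521 times in 3’-LEXO. Its Ghr was 1.14 times that mean in Trad-KAPA and 1.10 times in 3’-LEXO. Cish, another feedback inhibitor of cytokine receptors, was also lowest in control mouse 1, at 4.41 CPM against 11.6 and 14.5 CPM in the other control mice in Trad-KAPA. Fgf21, Cish and Alb were chosen here after their values were seen, and their values in single mice are given for Trad-KAPA only. Between the diets Fgf21 was not called (edgeR adjusted p = 0.148 with Trad-KAPA and 0.0951 with 3’-LEXO). Whether Fgf21 had a part in the low Ghr, Igf1 and Igfals of iron-loaded mouse 1 was not tested.

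**Figure D3:**
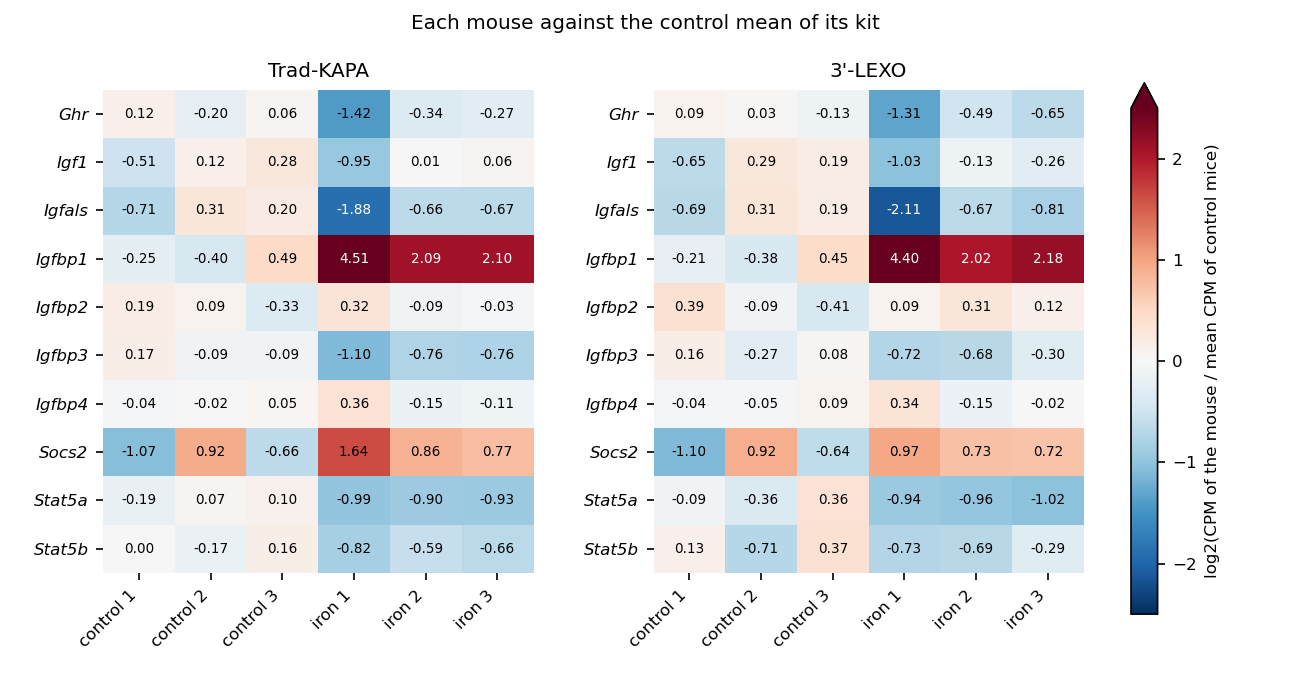
Log2 ratio of the CPM of each mouse to the mean CPM of the 3 control mice, for the 10 genes in each kit, with colours capped at 2.5 on both sides. The darkest red cells are Igfbp1 of iron-loaded mouse 1 at 22.7 and 21.1 times the control mean, and Igfals was low in both mice numbered 1 in both kits.

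The order of the 10 genes was taken per length in Trad-KAPA, as RPKM (CPM per kilobase of merged exons), and as CPM in 3’-LEXO, where reads do not grow with transcript length. In control mice Igfbp4 came first in both kits, at 378 ± 11.7 RPKM (SD, n = 3) and 2372 ± 127 CPM, followed by Igfbp2 at 244 ± 44.7 RPKM and 563 ± 159 CPM. In Trad-KAPA Ghr, Igfbp1, Igfals and Igf1 followed at 59.8, 39.4, 35.8 and 34.4 RPKM, and each of these overlapped with the next in the range of its 3 mice. Stat5b at 18.9, Igfbp3 at 7.91, Stat5a at 4.13 and Socs2 at 0.863 RPKM were each separate from their neighbours in the order. In 3’-LEXO Igf1 at 482 CPM overlapped with Igfbp2, the next genes were Ghr, Igfbp1, Igfals and Stat5b at 254, 249, 185 and 174 CPM with overlapping ranges, and Stat5a at 72.1 CPM was above Igfbp3 at 34.6 and Socs2 at 20.5 CPM, which overlapped. In iron-loaded mice Igfbp1 moved from the fourth to the first place in Trad-KAPA, at 411 ± 420 RPKM, and from the fifth to the second in 3’-LEXO, at 2466 ± 2418 CPM, overlapping with Igfbp4 in both. The first place in Trad-KAPA rested on iron-loaded mouse 1 at 897 RPKM, since in iron-loaded mice 2 and 3 Igfbp1 was at 168 and 169 RPKM, below Igfbp4 (341 and 349.6 RPKM) and Igfbp2 (230.4 and 239.9 RPKM). With the length of the longest transcript in place of merged exons, Ghr was at 130 RPKM and Igf1 at 48.3 RPKM in control mice, Igf1 then ranked above Igfals and Igfbp1, and in iron-loaded mice Igfbp1 came second after Igfbp4.

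The effect of the diet was next compared between the kits. The difference of the log2 fold changes (3’-LEXO minus Trad-KAPA, interaction in 1 fit of all 12 libraries) was between -0.30 ± 0.68 (SE) for Socs2 and 0.31 ± 0.25 for Igfbp3, and for Igfbp1 it was -0.06 ± 0.93 and for Stat5a -0.04 ± 0.26. No difference passed for the 10 genes (edgeR, 0 of 10), nor for any of the 14384 genes tested (0%, 402 at an unadjusted p under 0.05, and 0 with DESeq2). With the mouse as a block the SE was smaller, with -0.03 ± 0.11 for Igfbp1 and 0.32 ± 0.16 for Igfbp3 (edgeR adjusted p = 0.712), and 5 of 14384 genes but 0 of the 10 passed. A gene called in Trad-KAPA and not in 3’-LEXO, such as Igfbp3 or Stat5b, was thus not shown to respond differently in the 2 kits.

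The level itself differed between the kits for 8 of the 10 genes (edgeR over 12 libraries), beside 76.5% of 14384 genes, and 7 of the 10 were higher in 3’-LEXO, beside 38.8%. Ghr was lower in 3’-LEXO in 6 of 6 mice, by -1.18 ± 0.20 on the log2 scale (SE, edgeR adjusted p = 9.57e-05), and the other 9 genes were higher in 6 of 6 mice. The largest difference was that of Igfbp1, at 2.03 ± 0.49 (edgeR adjusted p = 0.00173), followed by Stat5a at 1.29 ± 0.13 (7.21e-07) and Socs2 at 1.15 ± 0.35 (0.0078). Igf1 and Igfals did not pass (edgeR adjusted p = 0.142 and 0.0584), and with the mouse as a block they did, at 0.41 ± 0.06 (2.95e-06) and 0.65 ± 0.06 (3.67e-09), so that 10 of 10 were called, 9 of them higher in 3’-LEXO, beside 82.6% and 41.9% of all genes. Igfbp2 was not called without control mouse 1 (0.0757), iron-loaded mouse 2 (0.154) or iron-loaded mouse 3 (0.0732), or with iron-loaded mice 2 and 3 summed (0.103). Igfbp1, with 1525 bp of merged exons the shortest of the 10 genes, had 4.11 times the CPM in 3’-LEXO. Igf1 and Socs2, with 9904 and 9531 bp the longest, had 1.32 and 2.25 times, and Ghr with 9053 bp had 0.448 times. The ratios did not follow length throughout, since Igfbp2 with 1847 bp had 1.28 times and Stat5a with 7133 bp had 2.40 times. A relation to length was not tested. Within the 6 mice the ratio was nearly constant for Igfbp1 and Igfbp4, with an SD of 0.07 and 0.05 on the log2 scale, and least so for Stat5b, at 0.32.

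**Figure D4:**
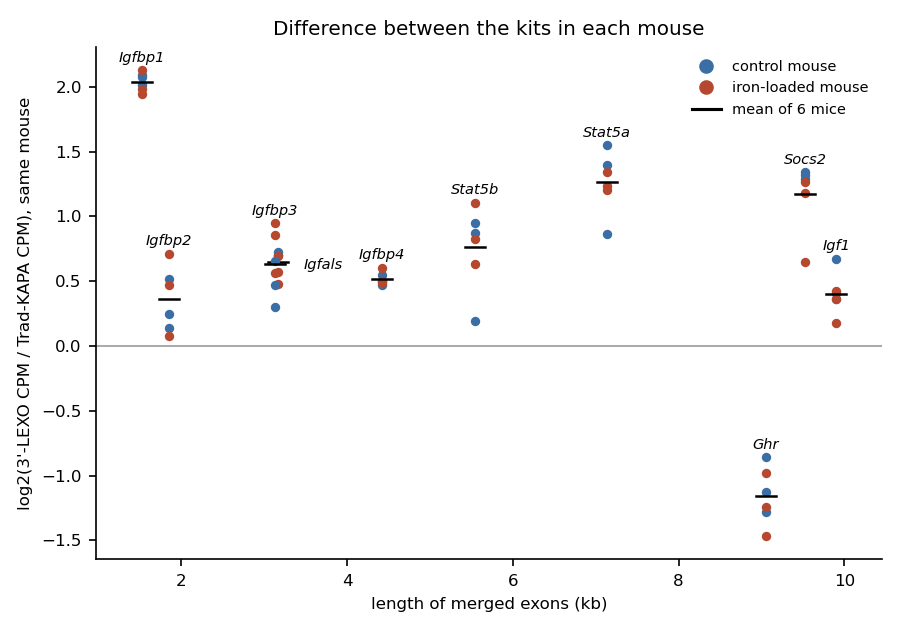
Log2 ratio of the 3’-LEXO to the Trad-KAPA CPM of the same mouse against the length of the merged exons in kb, with 6 mice per gene (blue control, red iron-loaded) and their mean as a bar. Ghr was below 0 in 6 of 6 mice and the other 9 genes above 0 in 6 of 6 mice, with Igfbp1, the shortest, the highest.

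Of the genes around the axis, those of GH receptor signalling came first. Among 12 tested in Trad-KAPA, 0 rose and 1 fell, and among 13 tested in 3’-LEXO 0 of 13 were called, beside 8.77% of all genes higher and 8.37% lower in Trad-KAPA and 6.1% called in 3’-LEXO, shares that also stand beside the next lists. The gene that fell was Ptpn6, the phosphatase SHP-1, at 29.6, 30.6 and 27.4 CPM in control and 20.7, 22.1 and 23.1 CPM in iron-loaded mice in Trad-KAPA (log2 fold change -0.48 ± 0.10, edgeR adjusted p = 0.0207), and in 3’-LEXO its estimate was -0.58 ± 0.15 (0.0537). Of the IGF receptors and insulin-type signalling genes 1 of 11 rose and 3 of 11 fell in Trad-KAPA and 0 of 11 were called in 3’-LEXO. Grb10, an adaptor that inhibits insulin and IGF receptors, rose from 6.51 to 13.1 CPM on average in Trad-KAPA (0.93 ± 0.14, edgeR adjusted p = 0.00629) and was at 6.61 and 9.71 CPM in 3’-LEXO (0.50 ± 0.18, 0.13). Igf1r and Insr, the receptors, were not called in either kit. Of the other IGF-binding proteins and their proteases 1 of 4 fell in Trad-KAPA and 1 of 5 in 3’-LEXO, in both Htra1, a secreted protease, from 2.13 to 0.658 CPM and from 2.26 to 0.69 CPM, with 7 to 10 reads in each iron-loaded library.

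The last lists held genes whose liver expression is known to depend on the GH pattern and to differ between the sexes. Of the female-biased genes 1 of 13 tested rose and 6 of 13 fell in Trad-KAPA, and 1 of 11 rose and 2 of 11 fell in 3’-LEXO, where 8.77% and 8.37% (Trad-KAPA) and 3.17% and 2.92% (3’-LEXO) of all genes rose and fell. Of the male-biased genes, measured here in females, 1 of 8 rose and 5 of 8 fell in Trad-KAPA, and 1 of 8 rose and 3 of 8 fell in 3’-LEXO. Their median log2 fold changes were -0.56 and -0.61 for the female-biased and -1.01 and -1.01 for the male-biased genes in Trad-KAPA and 3’-LEXO. Cyp2b13 and Sult3a1, female-biased enzymes, fell in both kits, with log2 fold changes of -1.39 and -1.54 for Cyp2b13 and -1.09 and -0.91 for Sult3a1 (edgeR adjusted p between 0.0137 and 0.0392). Slco1a1, a male-biased organic anion transporter, changed most, from 423, 945 and 1002 reads in the control to 1, 5 and 6 reads in the iron-loaded Trad-KAPA libraries (edgeR adjusted p = 0.000818) and from 263, 649 and 666 to 12, 17 and 9 reads in 3’-LEXO (0.000637). The male-biased Cyp7b1, an oxysterol hydroxylase, and Mup20, a major urinary protein with at most 34 reads per library, also fell in both kits (log2 fold changes of -1.20 and -1.19 for Cyp7b1, and -1.74 and -1.80 for Mup20), and Gstp1, a glutathione transferase, rose in both (1.44 ± 0.14 and 2.16 ± 0.36). Cyp2b13, Sult3a1, Mup20 and Gstp1 have close paralogs that can share reads, and their counts are uncertain in that respect.

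**Figure D5:**
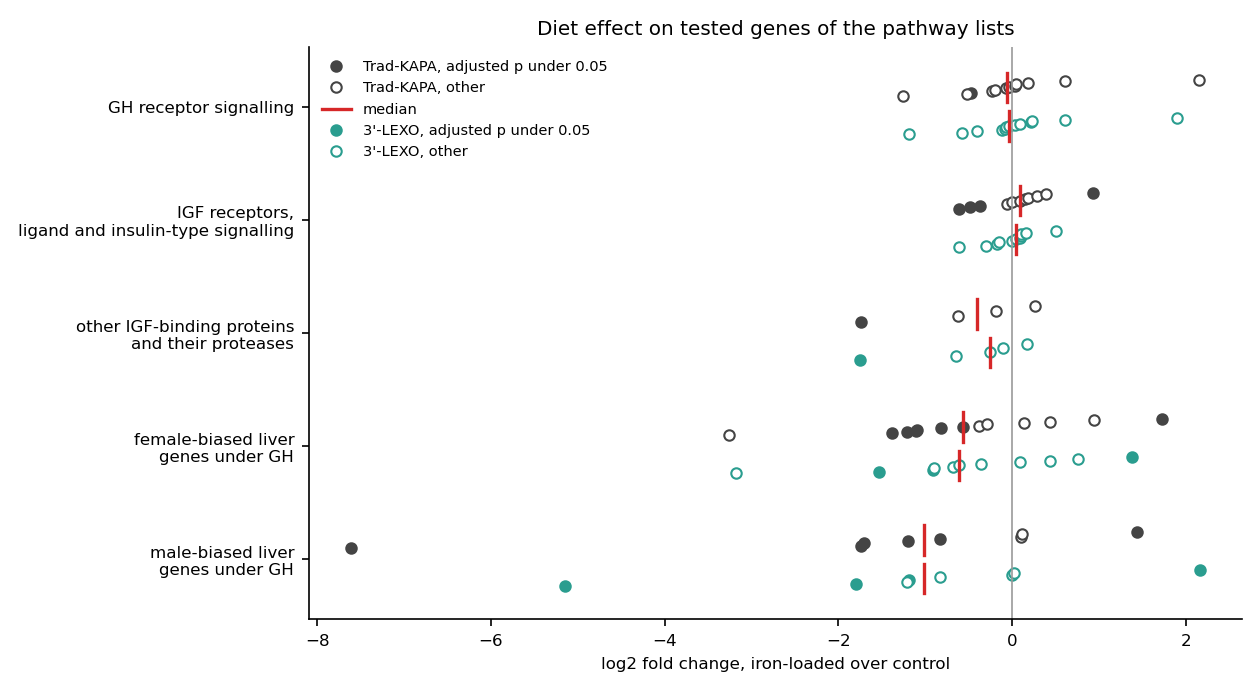
Log2 fold change between iron-loaded and control mice of each tested gene of 5 lists around the axis, in Trad-KAPA (black) and 3’-LEXO (green), filled where the adjusted p was under 0.05, with the median as a red bar. The medians of the sex-biased lists were between -1.01 and -0.56, and the gene furthest to the left was Slco1a1.

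The genes with the most similar pattern were sought for the 2 members called in both kits, by Pearson r of log2 CPM centred within each kit over the 12 libraries, among 6719 genes of at least 10 CPM on average in both kits. The libraries come from 6 mice, so that their points are not independent. Centring within each kit leaves the difference between the diets in r. Both members were chosen for a call between the diets, and the genes named below were called in both kits too. The r values of Igfbp1 also hold the high level of iron-loaded mouse 1. Rap1gap2 and Plekha1 were under 10 CPM on average in the control mice of Trad-KAPA and reached that minimum there through the iron-loaded mice, so that their likeness to Igfbp1 is in part given by the minimum. Nearest to Igfbp1 were Rap1gap2 (r = 0.994), which regulates the GTPase Rap1 and averaged 4.84 CPM in control and 38.0 CPM in iron-loaded mice in Trad-KAPA, and Plekha1 (r = 0.989), a phosphoinositide-binding adaptor at 9.46 and 34.3 CPM. Nearest to Stat5a were Stard13 (r = 0.976), at 36.5 and 18.9 CPM, and Atat1 (r = 0.975), a tubulin acetyltransferase at 24.4 and 9.64 CPM. Atat1 thus reached the minimum in Trad-KAPA through the control mice, where Stat5a was also higher. Its likeness to Stat5a is in part given by the minimum.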

How the data were processed

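Liver RNA of 6 mice gave 12 libraries (4 groups of 3). Per the labels, the authors used STAR 2.5.3a and mm10/GRCm38, and they deposited raw counts of reads per gene, and the counting program, strand setting and annotation release are not given in the sources used here. Symbols, positions and exon lengths came from GENCODE M21, which matched 26949 of 27022 identifiers. Promoters came from RefSeq (GRCm38.p6), with 0 entries for Socs2. Counts were tested within each kit with edgeR 4.0.16 in R 4.3.3 (TMM, filterByExpr, quasi-likelihood F test, Benjamini-Hochberg at 0.05 over all genes), and in 1 fit of 12 libraries for the kits. DESeq2 1.42.0 was an alternative. SE was the log2 fold change over the root of F. Fits were tried on simulated data with the same spread for every gene and independent libraries. The simulation held neither unequal likeness between mice nor 2 libraries from 1 mouse. It thus does not show how the fits behave under these conditions. P-values of the fits within a kit measure the spread between mice that shared a cage within a diet. The main fit of 12 libraries treated the 2 libraries of a mouse as independent and ignored their pairing. With the mouse as a block, p-values measure the spread of the kit difference within mice. Libraries of the 2 kits with 1 number come from 1 mouse, and their deviations from the group means correlated (r from 0.435 to 0.765 over 10326 genes), although this did not separate iron-loaded mice 2 and 3, whose cross pairs had r of 0.574 and 0.509. The members, lists and tests were chosen with earlier results of these data known. Named were all 10 members, and of each list the genes called in both kits (at most 6) or else the gene of lowest p in Trad-KAPA. A gene of the female-biased list that this rule names is not reported here.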

Additional observations from a re-analysis of the deposited data

How the results depend on the processing

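The number of the 10 genes called was 4 for Trad-KAPA and 2 for 3’-LEXO. It was 7 for both without the filter on low counts, 4 with DESeq2 for 3’-LEXO (with Ghr and Igfals, adjusted p = 0.00697 and 0.0189), and 1 for 3’-LEXO with iron-loaded mice 2 and 3 summed, a setting chosen after seeing the data, as was leaving out both mice numbered 1. Leaving out 1 mouse gave from 3 to 4 calls for Trad-KAPA and from 0 to 3 for 3’-LEXO, with 0 without control mouse 1 or 3 and 1 without iron-loaded mouse 3. Of the 10 genes, 0 showed an interaction in 14 of 14 alternatives, and 7 to 10 a level difference between kits. Over the whole table, in place of 2255 calls for Trad-KAPA, leaving out 1 mouse gave from 841 to 2803 and summing mice 2 and 3 gave 1147. In place of 811 for 3’-LEXO, these gave from 199 to 871 and 445, DESeq2 gave 1321 and no filter 2040. The interaction had 7 calls without the filter. Library totals without TMM called 1339 genes higher and 838 lower for Trad-KAPA, against 1154 and 1101.

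The replicate numbers do not pair mice across diets (r between -0.163 and 0.0964 for the same number). A replicate block gave 5 calls for Trad-KAPA and 3 for 3’-LEXO, the added gene being Igfals (adjusted p = 0.00426 and 0.018), and 1922 and 436 over the whole table. For the 12-library fits the mouse was the replicate block, with 0 calls for the interaction and 10 for the kits.

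Signs turned for estimates near 0 that passed in no setting. For Trad-KAPA, Igfbp4 was 0.053 without TMM, 0.049 with mice 2 and 3 summed and from -0.17 to 0.047 when 1 mouse was left out, and Igfbp2 from -0.10 to 0.10. For 3’-LEXO, Igfbp4 was -0.027 without the filter, -0.14 without both mice numbered 1 and from -0.12 to 0.082 when 1 was left out, and Igfbp2 from -0.029 to 0.35. The interaction with 1 mouse left out ranged from -0.10 to 0.046 for Igfbp1, from -0.028 to 0.31 for Igfbp2, from -0.011 to 0.087 for Igfbp4, from -0.21 to 0.14 for Stat5a and from -0.037 to 0.28 for Stat5b. The cause was not tested. With 3 mice per diet, a p that misses the threshold does not show that a gene was alike in both diets.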
